A study of Mus musculus with 10 samples.

Results

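The comparison set 2/20 CTLs kept with 4T1 tumor cells for 24 h against 2/20 CTLs given AH1 peptide for 24 h. Its members were taken by their labels, 2 libraries of each kind and so 4 of the 10 libraries in the study, and every gene with enough counts was tested, 14729 of 35275. The 2/20 line is a mouse cytotoxic T lymphocyte (CTL) line, labelled as wild-type T cells, that is specific for the AH1 peptide, and 4T1 is a mammary carcinoma line of BALB/c origin. The study asks how antigen and tumor cells activate tumor-specific CTLs and, from its title, what uptake of tryptophan through Slc7a5 does for them. Both groups came from the same CTL line, fed weekly with lethally irradiated BALB/c splenocytes, AH1 (1 µg/mL) and recombinant IL-2 (10 units/mL). Peptide activation used the same concentration of AH1. CTLs were then pulled out on magnetic beads coated with anti-CD45, which binds a surface protein of leukocytes, and stranded poly(A) RNA libraries were made. The groups at rest and at 4 h served to estimate the spread and to place the values at 24 h.

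What limits the comparison is known in part. The CTLs are 1 line, and whether the 2 libraries of a group came from separate cultures was not stated in the sources used here. The p-values therefore measure only the spread between libraries of the same group, estimated over all 5 groups. That spread may be technical. Whether splenocytes were present during peptide activation was likewise not stated. A library of 4T1 cells alone was not used here.

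A CTL whose T cell receptor binds its peptide on an MHC class I molecule switches on transcription factors of the NFAT, AP-1, NF-κB and IRF families. It then makes cytokines, granzymes and perforin, displays the high-affinity IL-2 receptor and enters the cell cycle, and it later restrains itself through inhibitory receptors. Interferon-γ, one of its main cytokines, acts on T cells and tumor cells alike and induces antiviral genes, GTPases that attack intracellular pathogens and MHC genes.

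The 4 libraries held 16656655 to 19528908 counts, within the 14104658 to 22910633 of all 10. Levels are given in CPM, the counts of a gene relative to the effective size of its library after TMM scaling. Log2 fold changes are co-culture minus peptide ± SE, and the adjusted p-values come from edgeR's quasi-likelihood test over the 14729 genes. The words rose and fell are kept for genes with an adjusted p under 0.05. By that rule 7742 genes (52.6%) differed, of which 4214 (28.6% of all) rose and 3528 (24.0%) fell, and the median over all genes was 0.02. Of all genes, 5674 (38.5%) had both co-culture libraries above both peptide libraries and 5255 (35.7%) had both below. Mitochondrially encoded genes took 2.09 and 2.74% of counts with peptide and 3.09 and 4.55% in co-culture.

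The co-culture libraries carried the transcripts of epithelial cells in quantity, although they came from CD45-selected cells. Krt8, a keratin of simple epithelia, was at 0 and 1.64 CPM with peptide against 855 and 1007 CPM in co-culture. Its partner Krt18 was at 0 and 1.04 CPM with peptide against 633 and 832 CPM in co-culture, and Epcam, an adhesion molecule of epithelia, at 0.0533 and 0.492 CPM with peptide against 257 and 280.0 CPM in co-culture. Both co-culture libraries lay far above both peptide libraries for all of these, by 10.15 ± 0.60, 10.46 ± 0.51 and 9.92 ± 0.34 on the log2 scale (adjusted p = 1.40e-08, 2.97e-09 and 2.94e-10). Cldn4, a tight junction claudin, had no count with peptide but 443 and 350.4 CPM in co-culture, at least 4902-fold higher against 3 counts over the peptide group. Of 33 tested epithelial markers, 31 rose and none fell, with a median of 7.48, or 7.36 with the 5 genes that lacked a count at their bound. The summed level of the list went from 69.9 and 86.6 CPM to 6235 and 6374 CPM. Of 21 tested markers of mesenchymal and stromal cells, 13 rose and 3 fell (up to 6 when 1 library was left out), among the former the matrix proteins Thbs1 (8.70) and Fn1 (8.15). Vim, an intermediate filament protein that T cells also make, fell (-3.12). Markers of tumor cells thus stood beside every result below, and their part in each was not tested.

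Genes of the T cell receptor complex and its proximal signaling fell together. Cd8a, the co-receptor chain of CTLs, was at 156 and 127 CPM with peptide against 35.8 and 23.5 CPM in co-culture (-2.25 ± 0.19, adjusted p = 3.72e-07). Cd247, the ζ chain of the receptor complex, was at 208 and 205 CPM with peptide against 42.5 and 45.9 CPM in co-culture (-2.23), and Ptprc, which encodes the CD45 used for the selection, at 1018 and 1079 CPM with peptide against 404 and 446 CPM in co-culture (-1.30). In each, both co-culture libraries were below both peptide libraries. Of 17 tested members, 16 fell and none rose, against 24.0% of all genes falling, and the median was -1.95. Cd28, the main costimulatory receptor, fell by 2.78 on the log2 scale and Thy1, a surface glycoprotein of T cells, by 2.60. The summed level went from 4790 and 4439 CPM to 1385 and 1311 CPM. In bulk RNA, fewer cells of a type and less RNA per cell cannot be told apart.

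A second scaling, which sets the libraries equal on the median of these T cell genes, shows what the other genes did relative to them. It adds a median of 1.70 to the log2 fold changes of the comparison, those of tumor transcripts included, and assumes that the T cell genes did not themselves change. Genes without a count in a group can shift otherwise, as Cd79b did from -12.09 to -12.46 and Cldn4 from 15.80 to 17.83. For genes with counts in both groups, a log2 fold change between about -1.70 and 0 mostly changes sign on that scale. With it 11567 genes (78.5%) rose and 655 (4.45%) fell, and the median over all genes went from 0.02 to 1.72. All 655 had also fallen with TMM scaling. Counts of list members below are to be read beside the shares of all genes. These were 28.6% rising and 24.0% falling with TMM scaling, and 78.5% and 4.45% with the second scaling. Of the 17 T cell genes themselves, 3 rose and 8 fell on that scale. Values on this scale are called T cell scaled below, and a gene that fell on both scales fell by more than about 1.70 with TMM scaling. It need not have fallen by more than the T cell genes, whose own T cell scaled median was -0.26.

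**Figure D1:**
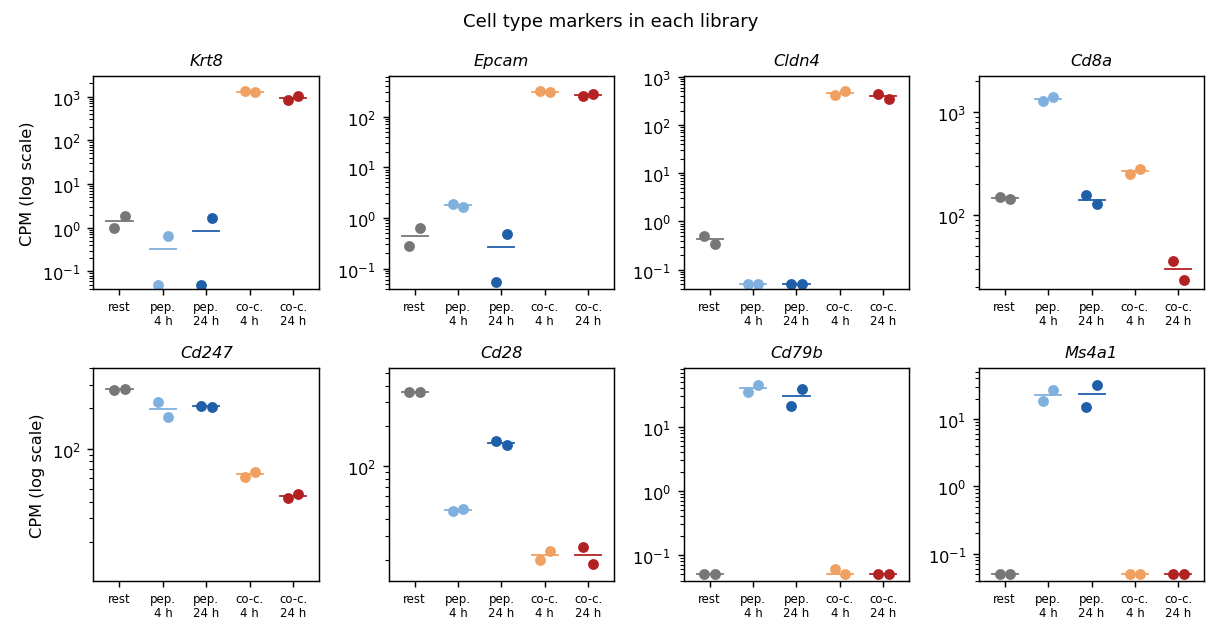
Levels (CPM, log axis) of 3 epithelial markers, 3 T cell genes and 2 B cell markers in the 10 libraries; each point is 1 library, each line the mean of 2, pep. is peptide, co-c. is co-culture, and points at 0.05 CPM stand for 0 or lower values. Krt8, Epcam and Cldn4 are high in the co-culture libraries alone, Cd8a, Cd247 and Cd28 are lower at 24 h of co-culture than at 24 h of peptide, and Cd79b and Ms4a1 are high in the peptide libraries alone.

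B cell transcripts were present with peptide and nearly gone in co-culture. Cd79b, a subunit through which the B cell receptor signals, was at 21.4 and 39.1 CPM with peptide and without a count in co-culture, at least 413-fold lower. Ms4a1, which encodes the B cell surface protein CD20, was at least 319.7-fold lower. Of 14 tested B cell markers, 13 fell, and those at 0 in both co-culture libraries included Ms4a1, Cd79b, Pax5, Blk, Cd22 and Iglc2. Peptide replicate 2 held more of them than replicate 1, by a median of 0.96 on the log2 scale over the list. The remaining marker, Cd74, the invariant chain of MHC class II that other cells also make, rose from 149.9 and 243 to 394 and 292 CPM (0.80), but did not pass without peptide replicate 1 (adjusted p = 0.079) or co-culture replicate 1 (0.0709). It made up nearly all of the list's sum in co-culture, 395 and 293 CPM against 380 and 726 CPM with peptide. Of 18 markers of myeloid cells, 10 fell and 3 rose, or 1 rose without peptide replicate 1. Lyz2, a lysozyme of macrophages, was at 11.4 and 16.6 CPM with peptide against 1.25 and 1.23 CPM in co-culture (-3.49), and Flt3, a receptor of dendritic cell precursors, at 6.92 and 6.39 CPM with peptide and 0 in co-culture. Cd14, a co-receptor for bacterial lipopolysaccharide, went the other way (2.53). The marker lists of CD4 T and NK cells (2 higher and 3 lower of 7) and of erythroid cells and platelets (1 higher and 3 lower of 7) stayed at low levels apart from Klri2, a lectin-like receptor at 279.7 and 316 CPM with peptide against 139 and 185 CPM in co-culture (-0.88), and Zbtb7b, a factor of CD4 T cells at 15.9 and 18.1 CPM with peptide against 65.6 and 53.1 CPM in co-culture (1.81).

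**Figure D2:**
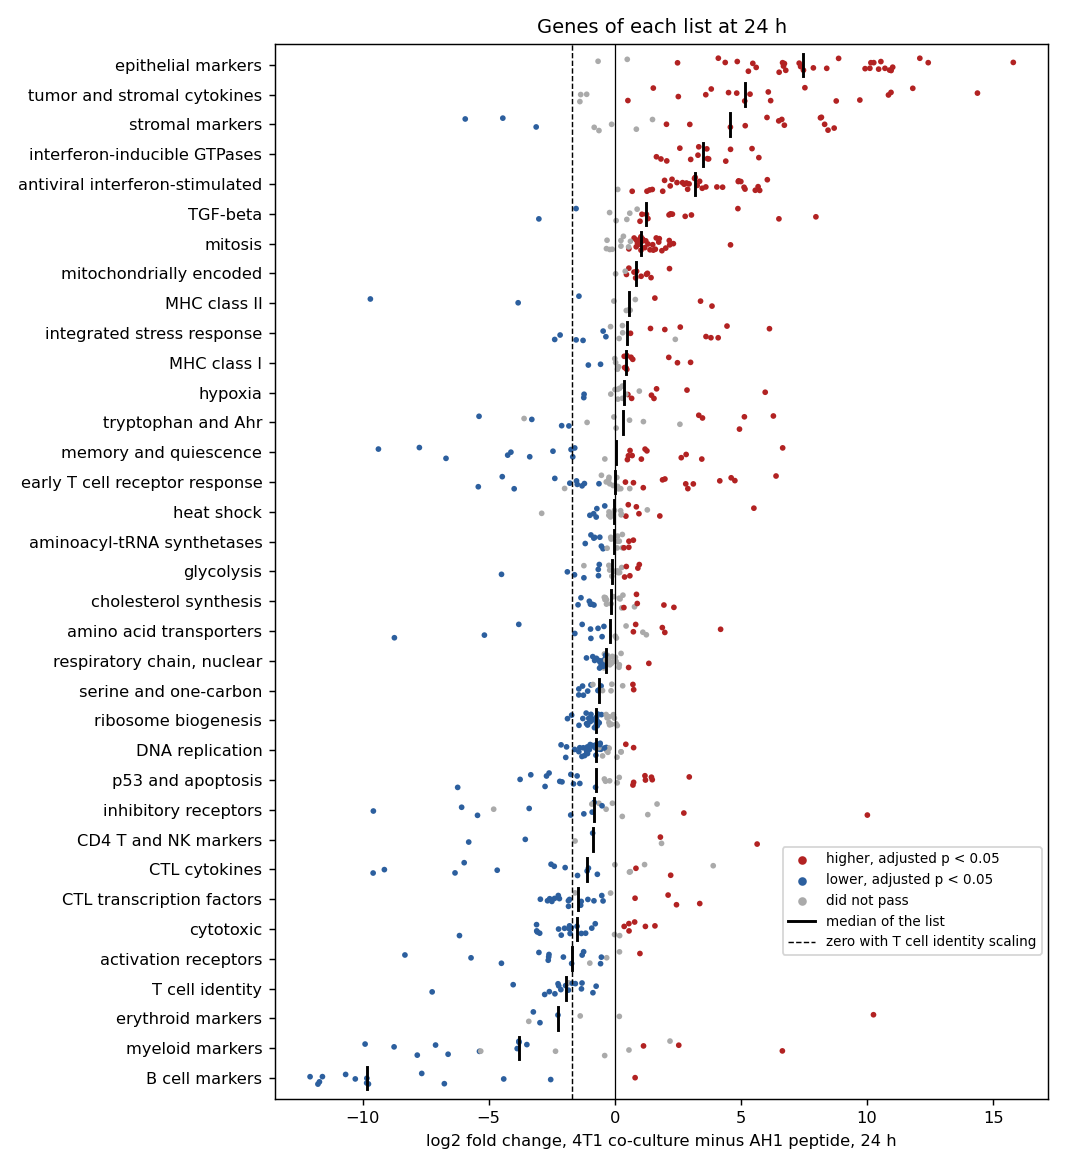
Log2 fold changes (co-culture minus peptide, 24 h; x axis) of all tested members of 35 gene lists, 1 point per gene, red for genes that rose, blue for genes that fell and grey for the rest; black bars mark list medians, and the dashed line is where zero would lie with T cell scaling. Epithelial markers have a median of 7.48 and B cell markers one of -9.84 (-7.47 with the 7 that lacked a count in co-culture at their bound), and both interferon lists lie wholly to the right of zero.

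Of 25 genes of the killing machinery of CTLs, 17 fell and 6 rose, against 24.0% and 28.6% of all genes, with a median of -1.50. With T cell scaling 6 fell and 11 rose, against 4.45% and 78.5% of all genes, with a median of 0.18. Gzmb, the main apoptosis-inducing protease of CTL granules, was at 5762 and 5389.8 CPM with peptide against 82.2 and 73.5 CPM in co-culture. The log2 fold change was -6.16 ± 0.15 (adjusted p = 9.21e-11), or -4.46 T cell scaled. Resting CTLs held 275 and 299 CPM, so with TMM scaling the peptide libraries lay above and the co-culture libraries below the resting ones. Placements against rest, here and below, hold for TMM scaling alone. The library factors of T cell scaling were 1.77 and 1.79 at rest but 0.342 and 0.294 in co-culture. That scaling can therefore change the order of resting and co-culture libraries. Prf1, the pore-forming perforin, was at 276 and 255 CPM with peptide against 35.8 and 27.2 CPM in co-culture (-3.07 ± 0.16, adjusted p = 5.05e-09; -1.38 T cell scaled). Nkg7, a granule membrane protein, fell by 2.23 and Klrk1, the activating receptor NKG2D, by 1.82. T cell scaled, Klrk1 was at -0.12 and did not pass. Gzma, another granzyme, fell from 12 and 17.4 to 0.974 and 2.47 CPM. Among the genes that rose were Lamp1, a membrane protein of lysosomes and granules that most cells make, at 221 and 232 CPM with peptide against 674 and 688 CPM in co-culture (1.59), and Tnfsf10, the death ligand TRAIL, at 32 and 26.2 CPM with peptide against 65.1 and 69.5 CPM in co-culture (1.21). Ctsw, a protease of cytotoxic cells (0.78), and Stxbp2, which helps granules fuse (0.56), rose as well.

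Several cytokines of activated CTLs fell. Ifng, which encodes interferon-γ, was at 1004 and 1056 CPM with peptide against 13.1 and 19.7 CPM in co-culture (-5.97 ± 0.22, adjusted p = 3.66e-10). Lta, which encodes lymphotoxin α, was at 1190.3 and 955 CPM with peptide against 14.6 and 11.9 CPM in co-culture (-6.34 ± 0.19, adjusted p = 1.33e-10). T cell scaled, they were still lower by 4.26 and 4.64 on the log2 scale. Ifng stood at 189 and 209 CPM at rest, between the 2 groups. Tnf, an inflammatory cytokine, was at 134 and 109 CPM with peptide against 23.6 and 18.5 CPM in co-culture (-2.53 ± 0.18, adjusted p = 1.02e-07; -0.83 T cell scaled), and Ccl3, a chemokine of activated T cells, fell by 1.97. T cell scaled, Ccl3 was at -0.28 and did not pass. Of 19 tested genes of this list, 12 fell and 2 rose, against 24.0% and 28.6% of all genes. With T cell scaling 7 fell and 7 rose, against 4.45% and 78.5% of all genes. Ccl5, a chemokine that memory CTLs store as message, was at 76.5 and 71.8 CPM with peptide against 366 and 322 CPM in co-culture (2.21 ± 0.13, adjusted p = 1.99e-08), and at 1368 and 1365 CPM at rest. With TMM scaling both co-culture libraries thus lay between the peptide and the resting ones. Ltb, a membrane lymphotoxin subunit, was at 143 and 176 CPM with peptide against 284 and 284 CPM in co-culture (0.84).

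Receptors that mark recent activation were lower as well. Il2ra, the α chain that gives the IL-2 receptor its high affinity, was at 2628 and 2133 CPM with peptide against 50.1 and 41.2 CPM in co-culture (-5.70 ± 0.19, adjusted p = 2.51e-10; -4.00 T cell scaled). Tnfrsf8, which encodes the receptor CD30, was at 412 and 357 CPM with peptide against 1.25 and 1.13 CPM in co-culture (-8.32 ± 0.23, adjusted p = 9.21e-11; -6.63 T cell scaled). For both genes the co-culture libraries lay below the resting libraries too with TMM scaling. The resting libraries held 203 and 207 CPM of Il2ra and 9.19 and 8.86 CPM of Tnfrsf8. The costimulatory receptors Tnfrsf9, known as 4-1BB, and Icos fell by 4.50 and 3.01. Of 17 activation receptors 13 fell and 1 rose, against 24.0% and 28.6% of all genes. With T cell scaling 6 fell and 5 rose, against 4.45% and 78.5% of all genes. The riser with TMM scaling was Cd44, an adhesion receptor that activated T cells and carcinoma cells both carry, at 231 and 199.9 CPM with peptide against 465 and 392 CPM in co-culture (0.99).

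**Figure D3:**
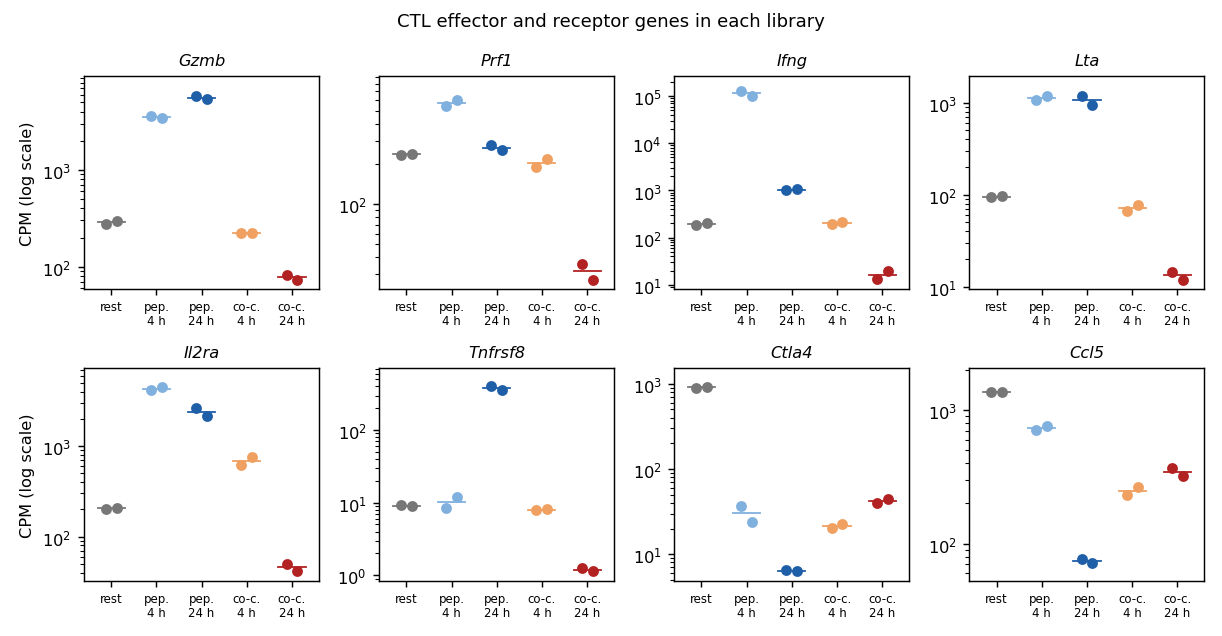
Levels (CPM, log axis) of 8 CTL effector and receptor genes in the 10 libraries; each point is 1 library, each line the mean of 2, pep. is peptide and co-c. is co-culture. Gzmb, Prf1, Ifng, Lta, Il2ra and Tnfrsf8 are lowest at 24 h of co-culture, whereas Ctla4 and Ccl5 are lowest at 24 h of peptide.

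Inhibitory receptors did not move as 1 group, since 9 of 19 fell, 2 rose and 8 did not pass. Of all genes 24.0% fell and 28.6% rose. With T cell scaling 3 fell and 10 rose, against 4.45% and 78.5% of all genes. Pdcd1, which encodes PD-1, was at 44.2 and 43.2 CPM with peptide against 13.2 and 12.8 CPM in co-culture (-1.75 ± 0.14, adjusted p = 2.13e-07). T cell scaled it was at -0.05 and did not pass. Havcr2, which encodes TIM-3, was at 103 and 105 CPM with peptide against 48.3 and 63.1 CPM in co-culture (-0.90 ± 0.16, adjusted p = 0.000365), but rose by 0.81 T cell scaled. Ctla4, a competitor of CD28 for its ligands, was higher in co-culture at 6.44 and 6.28 CPM with peptide against 39.8 and 45 CPM in co-culture (2.74 ± 0.19, adjusted p = 7.91e-08). Its peptide libraries were far below the resting libraries, which held 894 and 919 CPM. Nt5e, the ectoenzyme CD73 that makes adenosine and that carcinoma cells also display, was at 0.266 and 0.328 CPM with peptide against 279 and 348 CPM in co-culture (10.01). Pdcd1lg2, the PD-1 ligand PD-L2, fell by 3.40, and Cd200, a membrane glycoprotein with an inhibitory receptor, by 6.08. Cd274, the ligand PD-L1, was at 77.8 and 75.9 CPM with peptide against 88.4 and 99.9 CPM in co-culture and did not pass (0.29 ± 0.13, adjusted p = 0.0777), though it passed without co-culture replicate 1 (adjusted p = 0.0416) and with DESeq2's Wald test (adjusted p = 0.0311), and rose by 2.00 T cell scaled.

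Early response genes of the T cell receptor went both ways, 12 of 34 up and 10 down, near the shares of all genes, or 25 and 4 with T cell scaling. Batf3 and Batf, AP-1 partners of the IRF family, and Irf4, which scales the response to receptor strength, were lower. Irf4 was at 467 and 398 CPM with peptide against 24.6 and 14.5 CPM in co-culture (-4.46 ± 0.24, adjusted p = 6.34e-09; -2.78 T cell scaled) and Batf3 at 322 and 303 CPM with peptide against 8.02 and 6.58 CPM in co-culture (-5.41). Batf fell by 3.99 and Nfkbid, a nuclear IκB protein, by 2.38. Among the genes that rose, Dusp6, a phosphatase of ERK, was at 8.79 and 6.5 CPM with peptide against 220.4 and 194 CPM in co-culture (4.76 ± 0.18, adjusted p = 4.92e-10), and the AP-1 subunit Fosl1 at 3.94 and 3.55 CPM with peptide against 102 and 81.6 CPM in co-culture (4.61). Another AP-1 subunit, Fosl2, rose by 3.11 and Ier3, an immediate early gene, by 2.81. Myc, the growth regulator, was at 468 and 404 CPM with peptide against 147 and 106 CPM in co-culture (-1.79 ± 0.17, adjusted p = 1.11e-06), and at -0.09 T cell scaled, which did not pass.

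Of 22 factors of CTL fate, 16 fell and 4 rose, against 24.0% and 28.6% of all genes. With T cell scaling 5 fell and 9 rose, against 4.45% and 78.5% of all genes. Tbx21, the T-bet factor that drives effector genes, was at 246 and 207 CPM with peptide against 31.6 and 26.8 CPM in co-culture (-2.95 ± 0.16, adjusted p = 8.20e-09; -1.25 T cell scaled). The lymphoid factor Ikzf1 fell by 2.50 and Stat5a, which relays IL-2 signals, by 2.67. Gata3, a factor of T helper 2 cells and of mammary epithelium, was at 4.74 and 5.79 CPM with peptide against 62.1 and 46.5 CPM in co-culture (3.37 ± 0.22, adjusted p = 3.04e-08), and Runx1 rose by 2.11. Eomes, a factor related to T-bet, rose from 0.746 and 0.601 to 4.45 and 2.93 CPM (2.44).

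Genes of memory, egress and quiescence went both ways, 11 up and 10 down among 22, or 12 and 7 with T cell scaling. Ccr7, the chemokine receptor for entry into lymph nodes, was at 167 and 149 CPM with peptide against 1.3 and 0.103 CPM in co-culture (-7.75 ± 0.47, adjusted p = 1.73e-08). B cells of the spleen also carry this receptor, and their markers were at 21.4 and 39.1 CPM of Cd79b in the same peptide libraries. The part of those cells in the fall of Ccr7 was not tested. The T cell factors Satb1 and Lef1 fell by 3.38 and 2.45, and Tcf7, the factor of stem-like T cells, was at 6.34 and 5.25 CPM with peptide against 1.67 and 1.8 CPM in co-culture (-1.74). T cell scaled, Tcf7 was at -0.03 and did not pass. Id3, an inhibitor of E proteins, was at 1.6 and 3.61 CPM with peptide against 247 and 277 CPM in co-culture (6.65 ± 0.33, adjusted p = 3.63e-09). Btg1, an antiproliferative gene of quiescent lymphocytes, rose by 1.27, and Bcl6 and Klf3, both repressors, rose by 2.63 and 3.45.

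The cell cycle genes split by phase. Of 36 mitosis genes 27 rose and none fell, with a median of 1.05, whereas of 38 DNA replication genes 27 fell and 2 rose, with a median of -0.76. Anln, a scaffold of the cleavage furrow, was at 19 and 23.2 CPM with peptide against 469.9 and 543 CPM in co-culture (4.59 ± 0.18, adjusted p = 5.95e-10). Cenpa, the histone of centromeres, was at 40.7 and 38.1 CPM with peptide against 168 and 188 CPM in co-culture (2.17), Ccnb2, a mitotic cyclin, at 27.8 and 25 CPM with peptide against 111 and 125 CPM in co-culture (2.16), and Kif23, a cytokinesis motor, at 27.7 and 26.4 CPM with peptide against 135 and 135 CPM in co-culture (2.32). All 4 genes had both co-culture libraries above both peptide libraries. Rfc3, a subunit of the clamp loader, was at 268 and 247 CPM with peptide against 55.6 and 61.9 CPM in co-culture (-2.13 ± 0.14, adjusted p = 3.29e-08). Ccne1, the cyclin of S phase entry, was at 53.9 and 43.9 CPM with peptide against 13.5 and 11.8 CPM in co-culture (-1.95), and E2f2, an S phase activator, at 70 and 59.4 CPM with peptide against 17.7 and 16.6 CPM in co-culture (-1.92). Mcm6, a helicase subunit, fell by 1.59. T cell scaled, Ccne1 (-0.24), E2f2 (-0.21) and Mcm6 (0.11) did not pass. Cdt1, a licensing factor, and Tk1, thymidine kinase, were the 2 that rose (0.74 and 0.43), and Tk1 did not pass without peptide replicate 1 (adjusted p = 0.0642), peptide replicate 2 (0.141) or co-culture replicate 2 (0.115). Mki67, a marker of cycling cells, was at 463 and 458 CPM with peptide against 409 and 392 CPM in co-culture and did not pass (-0.20 ± 0.13, adjusted p = 0.228). With T cell scaling the split between the lists remained in their medians, 2.76 for mitosis and 0.94 for replication, but 31 replication genes then rose and 1 fell, and all 36 mitosis genes rose. At 4 h, where 35.1% of all genes were higher and 26.3% lower in co-culture, both lists were higher, with medians of 4.36 and 1.76. The change from 4 h to 24 h passed its own test (interaction, 36.0% of all genes) in the downward direction for 34 of 36 mitosis genes and 33 of 38 replication genes.

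**Figure D4:**
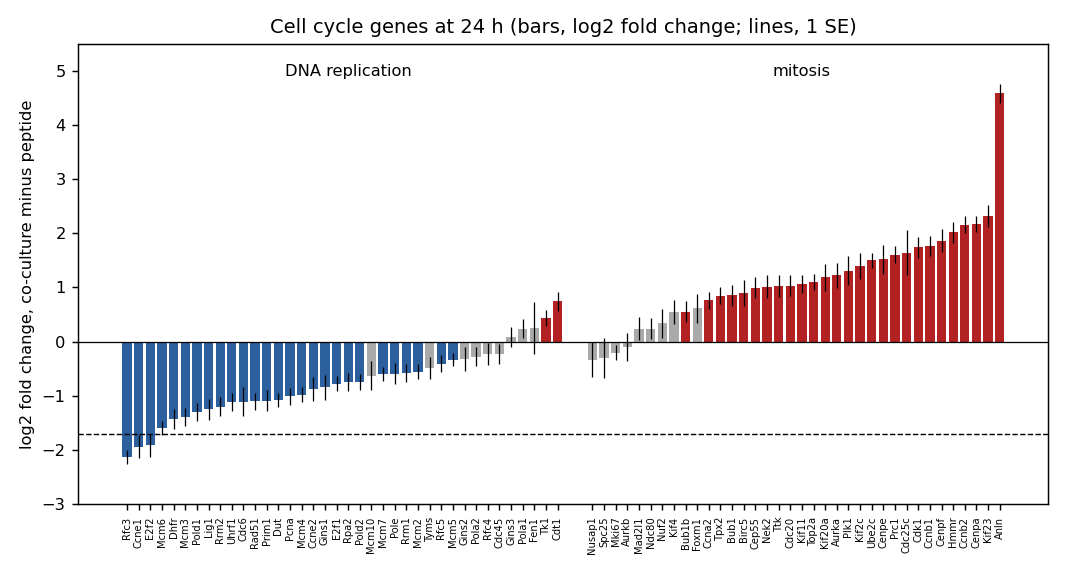
Log2 fold changes (co-culture minus peptide, 24 h; y axis) of 38 DNA replication and 36 mitosis genes, 1 bar per gene with a line of 1 SE; red genes rose, blue genes fell, grey ones did not pass, and the dashed line is where zero would lie with T cell scaling. Most replication genes lie below zero, down to Rfc3 at -2.13, and most mitosis genes above it, up to Anln at 4.59.

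Of 36 ribosome biogenesis genes 26 fell and none rose, with a median of -0.73. Fbl, the methyltransferase of ribosomal RNA, was at 302 and 284 CPM with peptide against 129 and 114 CPM in co-culture (-1.27 ± 0.13, adjusted p = 2.89e-06), and Rrp1b, a nucleolar protein, fell by 1.88. With T cell scaling 33 of them rose and none fell, so the direction of this list depends on the scaling. Rrp1b was then at -0.18 and did not pass. Folate enzymes were lower with TMM scaling, with 9 of 16 serine and one-carbon genes falling and 2 rising, but 12 rose and none fell with T cell scaling. Of 33 nuclear genes of the respiratory chain 14 fell and 2 rose (8 fell without peptide replicate 1, 9 without co-culture replicate 1, and all 33 rose with T cell scaling), while 10 of 12 mitochondrially encoded genes rose. The latter moved with the mitochondrial share of counts given above, which was also higher in co-culture replicate 2 than in replicate 1. Glycolysis genes went both ways, 5 up and 7 down of 21, against 28.6% and 24.0% of all genes. With T cell scaling 16 were up and 1 down. The lactate exporter Slc16a3 was at 175 and 148 CPM with peptide against 7.79 and 6.48 CPM in co-culture (-4.49 ± 0.17, adjusted p = 3.88e-10, and -2.80 T cell scaled). Pfkp, a phosphofructokinase, fell by 1.88 and Pfkl, its liver isoform, rose by 0.97. T cell scaled, Pfkp was at -0.19 and did not pass. Of 23 cholesterol synthesis genes 5 rose and 6 fell, near the shares of all genes, and 21 rose and none fell with T cell scaling.

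Slc7a5, the transporter that carries tryptophan and other large neutral amino acids, was lower in co-culture than with peptide. It was at 239.9 and 185 CPM with peptide against 112 and 61.1 CPM in co-culture (-1.30 ± 0.25, adjusted p = 0.000708), and at 16 and 13.3 CPM at rest. Both co-culture libraries thus lay below both peptide libraries and above both resting ones. T cell scaled, the value was 0.39 and did not pass (adjusted p = 0.126). Slc7a5 (ENSMUSG00000040010) lies on chromosome 8, minus strand, from 121881150 to 121907694 in the deposited mm10 coordinates. Its heavy chain Slc3a2 (ENSMUSG00000010095; chromosome 19, minus strand, 8706882 to 8723369) was at 194 and 169.6 CPM with peptide against 147 and 109 CPM in co-culture (-0.51 ± 0.17, adjusted p = 0.0228), with adjusted p = 0.152 without peptide replicate 1 and 0.208 without co-culture replicate 2. T cell scaled, Slc3a2 rose by 1.19. Of 20 amino acid transporters 10 fell and 5 rose, against 24.0% and 28.6% of all genes. With T cell scaling 1 fell and 14 rose, against 4.45% and 78.5% of all genes. Slc1a5, a glutamine carrier, fell by 1.59 and Slc38a1, another, by 0.95, while Slc38a2, a carrier of small neutral amino acids, was at 105 and 109 CPM with peptide against 182 and 173 CPM in co-culture (0.73) and Slc1a4, a carrier of alanine and serine, at 2.93 and 3.22 CPM with peptide against 12.4 and 10.3 CPM in co-culture (1.88). Slc7a11, the cystine importer, rose by 1.98. Without peptide replicate 1, or without co-culture replicate 2, 6 rather than 10 fell.

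Of 16 tested genes of tryptophan use and the aryl hydrocarbon receptor 5 rose and 4 fell, near the shares of all genes, or 10 and 2 with T cell scaling. Ido1, which opens the kynurenine pathway, was at 0.426 and 0.71 CPM with peptide against 37.4 and 52.1 CPM in co-culture (6.29 ± 0.43, adjusted p = 5.41e-08), and Ido2, its relative, at 0.32 and 0.164 CPM with peptide against 8.16 and 7.15 CPM in co-culture (4.94). Downstream, Kmo was at 7.99 and 14.4 CPM with peptide against 0.742 and 1.54 CPM in co-culture (-3.29) and Kynu at 4.95 and 5.96 CPM with peptide against 0 and 0.257 CPM in co-culture (-5.39). Ahr, the receptor that kynurenine can bind, was at 0.266 and 0.656 CPM with peptide against 18.3 and 14.5 CPM in co-culture (5.14 ± 0.47, adjusted p = 9.65e-07), and its target Tiparp at 5.43 and 6.67 CPM with peptide against 65.9 and 68.6 CPM in co-culture (3.47). Both co-culture libraries were above both peptide libraries for Ido1, Ido2, Ahr and Tiparp and below them for Kmo and Kynu. Among 20 cytosolic aminoacyl-tRNA synthetases 4 rose and 7 fell (all 20 rose with T cell scaling), and Wars, which charges the tRNA of tryptophan and is induced by interferon, was at 136 and 119.8 CPM with peptide against 244 and 180.4 CPM in co-culture (0.73 ± 0.18, adjusted p = 0.0036). Hars, which charges that of histidine, fell by 1.17.

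Antiviral genes induced by interferon rose almost without exception, 31 of 32, with none falling and a median of 3.17. Cmpk2, a mitochondrial nucleotide kinase, was at 2.56 and 2.19 CPM with peptide against 126 and 118 CPM in co-culture (5.68 ± 0.21, adjusted p = 3.72e-10). Rtp4, a chaperone that restrains interferon responses, was at 2.77 and 3.72 CPM with peptide against 118 and 114 CPM in co-culture (5.16), Oas1a, a sensor of double-stranded RNA, at 2.18 and 3.28 CPM with peptide against 105 and 85.1 CPM in co-culture (5.12), and Isg20, an exonuclease, at 3.25 and 5.08 CPM with peptide against 117 and 134 CPM in co-culture (4.91). For all of these the co-culture libraries lay far above the peptide libraries. The summed level of the list went from 876 and 957 CPM to 5173 and 5180 CPM. Trim30a, a regulator of NF-κB signaling, was the member that did not pass, at 159.8 and 176 CPM with peptide against 162 and 201 CPM in co-culture (0.11).

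All 14 interferon-inducible GTPases rose, with a median of 3.49. Gbp4 was at 138 and 133 CPM with peptide against 1722 and 1855 CPM in co-culture (3.72 ± 0.13, adjusted p = 3.09e-10), and Gbp2, another guanylate-binding protein that attacks vacuoles of pathogens, at 50.6 and 69.9 CPM with peptide against 1173 and 1723 CPM in co-culture (4.59). Irgm2, a regulator of the family, was at 25.8 and 27.4 CPM with peptide against 365 and 312 CPM in co-culture (3.67), and Tgtp1, an effector GTPase, at 9.32 and 14.6 CPM with peptide against 415 and 624 CPM in co-culture (5.44). Their sum went from 1155 and 1296 CPM to 9736 and 12770 CPM. Oas1a, Gbp4 and Tgtp1 have near-identical relatives, and how shared reads were counted was not stated in the sources used here. With T cell scaling all 14 and all 32 antiviral genes rose.

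This difference was larger at 24 h than at 4 h. At 4 h the antiviral list had a median of -0.71, with 6 genes higher and 17 lower in co-culture, and the GTPases one of 1.69, with 12 higher and 1 lower. The change from 4 h to 24 h passed its test in the upward direction for 32 of 32 antiviral genes and 13 of 14 GTPases. For Cmpk2 the log2 fold change at 4 h was -0.41 and the change 6.09 ± 0.26 (adjusted p = 2.42e-08). Gbp4 was already higher at 4 h (1.65), and its change was 2.07 ± 0.17 (adjusted p = 1.45e-06).

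**Figure D5:**
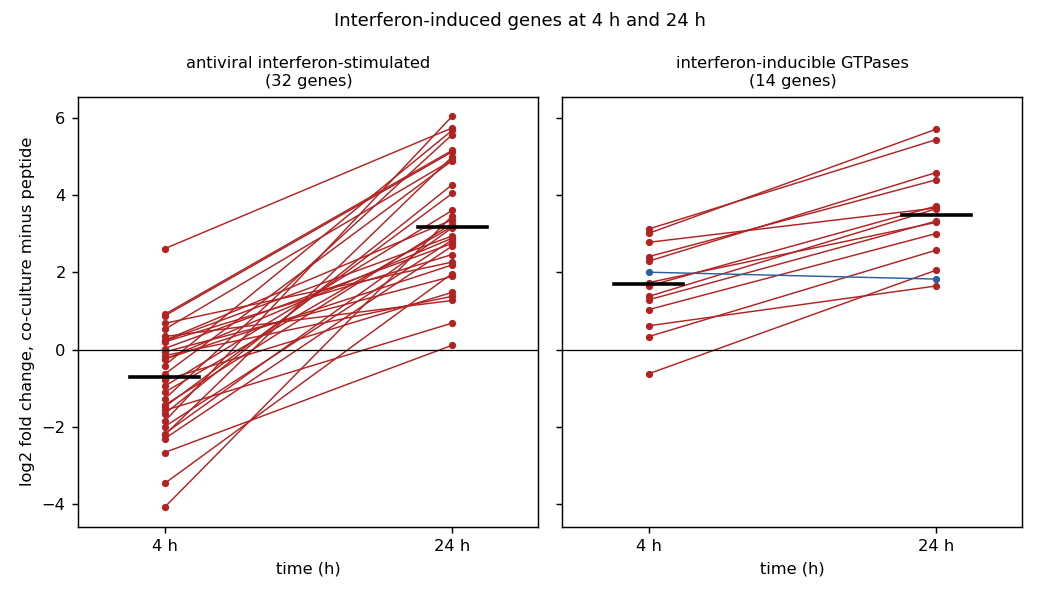
Log2 fold changes (co-culture minus peptide; y axis) of 32 antiviral interferon-stimulated genes and 14 interferon-inducible GTPases at 4 h and 24 h; each line joins 1 gene, red where the value is higher at 24 h and blue where it is lower, and black bars are medians. The medians go from -0.71 to 3.17 and from 1.69 to 3.49.

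The interferon-stimulated response element, searched as GAAANNGAAA on both strands with overlaps allowed, is the sequence bound by the interferon-activated factors. It was looked for in the 250 bases before the start of each gene in RefSeq promoters (GRCm38.p6), where 936 of 27025 genes (3.5%) hold it. An entry existed for 9 of the 14 GTPases and 23 of the 32 antiviral genes, which is below 80% of each list, so a comparison of the lists with other genes is void. All 9 and 9 of the 23 held the motif. The stretches below show it, in capitals, in genes named here and in Isg15, a ubiquitin-like protein chosen after its values were seen (7.4 and 8.74 CPM with peptide against 141 and 126 CPM in co-culture; 4.05). Starts are those of RefSeq and can differ from the deposited ones: the stretches of Irgm2 and Tgtp1 lie inside the deposited spans of their genes, and that of Gbp2 runs into its own. Each is written along the strand of its gene, at chr5:92349068-92349127 (minus) for Cxcl10, a chemokine that draws T cells, chr5:120907526-120907570 (minus) for Oas1a, chr11:58214888-58214947 (plus) for Irgm2, chr11:48992289-48992348 (minus) for Tgtp1, chr3:142620579-142620638 (plus) for Gbp2 and chr4:156200850-156200921 (minus) for Isg15. Gzma, which fell in co-culture, also held 1 match, as TTTCATTTTC, and its stretch is not printed. A match is a description of these letters and not evidence of a bound factor.
Cxcl10: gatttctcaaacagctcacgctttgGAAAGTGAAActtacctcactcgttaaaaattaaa

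Oas1a: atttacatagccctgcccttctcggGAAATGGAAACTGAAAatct

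Irgm2: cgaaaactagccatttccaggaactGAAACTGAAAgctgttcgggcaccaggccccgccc

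Tgtp1: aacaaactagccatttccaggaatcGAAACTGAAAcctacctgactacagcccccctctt

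Gbp2: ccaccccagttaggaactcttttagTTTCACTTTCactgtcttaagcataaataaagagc

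Isg15: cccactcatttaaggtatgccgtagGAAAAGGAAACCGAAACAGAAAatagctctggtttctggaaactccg

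The GTPase stretches of Irgm2 and Tgtp1 share the core GAAACTGAAA, Gbp2 carries its match on the opposite strand as TTTCACTTTC, and Isg15 holds 3 overlapping matches and Oas1a 2.

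Chemokines that draw T cells and growth factors of tumor and stromal cells were higher in co-culture. Cxcl9, a ligand of the receptor Cxcr3, was at 10.4 and 12.2 CPM with peptide against 389.6 and 538 CPM in co-culture (5.36 ± 0.31, adjusted p = 1.27e-08), and Cxcl10, whose promoter is shown above, at 14.5 and 14.5 CPM with peptide against 228 and 182 CPM in co-culture (3.82 ± 0.17, adjusted p = 1.27e-09). Cxcl16, which binds the T cell receptor Cxcr6, was at 7.56 and 9.07 CPM with peptide against 179 and 199.7 CPM in co-culture (4.51), and Cx3cl1, the tethered chemokine fractalkine, at 2.34 and 3.06 CPM with peptide against 238 and 154 CPM in co-culture (6.18). Lif, a cytokine of the IL-6 family, was at 0.799 and 1.48 CPM with peptide against 237 and 186 CPM in co-culture (7.54 ± 0.26, adjusted p = 3.26e-10). Neutrophil-attracting Cxcl5 had no count with peptide but 132 and 165 CPM in co-culture, at least 1831-fold higher. Of 21 tested genes of this list 18 rose and none fell, with a median of 5.15, although 2 fell without peptide replicate 1 and 1 without co-culture replicate 2.

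MHC class I genes rose by small amounts and some of their helpers by more. Of 17 genes 11 rose and 2 fell, with a median of 0.43. Irf1, the factor that activates them, was at 65 and 70 CPM with peptide against 543 and 538 CPM in co-culture (adjusted p = 1.10e-09). Tapbpl, a peptide editor, was at 24.9 and 24.8 CPM with peptide against 150.5 and 127 CPM in co-culture (2.48), and Psmb10, a subunit of the immunoproteasome, at 95.5 and 89.5 CPM with peptide against 372 and 443 CPM in co-culture (2.14). Psmb8, another such subunit, went the opposite way, at 491 and 413 CPM with peptide against 239 and 197 CPM in co-culture (-1.05). H2-K1, a class I heavy chain, was at 146 and 137 CPM with peptide against 204 and 190.0 CPM in co-culture (0.47 ± 0.12, adjusted p = 0.00545). In a fit of the 4 libraries alone 5 rather than 11 of the list rose, and H2-K1 did not pass (adjusted p = 0.064). Without peptide replicate 2 it was 7, and H2-K1 again did not pass (adjusted p = 0.052).

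Class II genes went both ways, with 3 up and 3 down of 11, near the shares of all genes (28.6% and 24.0%). With T cell scaling 8 rose and 2 fell, against 78.5% and 4.45% of all genes. Ciita, their master activator, was at 4.05 and 6.07 CPM with peptide against 61 and 45.6 CPM in co-culture (3.40 ± 0.25, adjusted p = 9.30e-08), and the peptide-loading subunits H2-DMb1 and H2-DMa rose by 3.85 and 1.59. H2-Aa, a class II chain, was at 11.1 and 21.4 CPM with peptide against 22.5 and 27 CPM in co-culture and did not pass (0.61 ± 0.34, adjusted p = 0.152). H2-Ob, a loading inhibitor of B cells, was at 4.42 and 7.1 CPM with peptide and 0 in co-culture. Class II transcripts were thus present both in the peptide libraries, which held B cell markers, and in the co-culture libraries, where 7 of 14 B cell markers were at 0. Without peptide replicate 2, the library with more B cell transcripts, 7 rather than 3 of the list rose, H2-Aa among them (adjusted p = 0.0158).

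Genes of cell stress and death went both ways. Cdkn1a, the cell cycle inhibitor p21 and a target of p53, was at 463 and 375 CPM with peptide against 35.9 and 26 CPM in co-culture (-3.76 ± 0.19, adjusted p = 3.85e-09; -2.06 T cell scaled). Ccng1, another p53 target, was at 836 and 1005 CPM with peptide against 113 and 158 CPM in co-culture (-2.77), and Pmaip1, the death activator Noxa, fell by 3.33. Bcl2l11, the death activator Bim, was at 4.31 and 6.89 CPM with peptide against 48.6 and 37.9 CPM in co-culture (2.95). In that list 13 of 25 fell and 7 rose, against 24.0% and 28.6% of all genes. With T cell scaling 6 fell and 13 rose, against 4.45% and 78.5% of all genes. Among 20 genes of the integrated stress response 9 rose and 6 fell, or 16 and 2 with T cell scaling, beside the same shares of all genes. Nupr1, a stress-induced chromatin protein, was at 0.533 and 0.82 CPM with peptide against 40.3 and 55.2 CPM in co-culture (6.13), and Trib3, a pseudokinase, at 1.92 and 1.09 CPM with peptide against 28.4 and 23.4 CPM in co-culture (4.10), while Sesn2, an inhibitor of growth signaling, fell by 2.39 and Atf3 by 2.17. Of 21 heat shock chaperones 6 rose and 5 fell, near the shares of all genes, or 20 and none with T cell scaling. Hspa1b among them was at 1.33 and 2.19 CPM with peptide against 84.8 and 76 CPM in co-culture (5.51 ± 0.23, adjusted p = 7.18e-10).

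Of 19 genes of the TGF-β pathway 12 rose and 2 fell, with a median of 1.25. Smad7, a feedback inhibitor, was at 11.3 and 11.5 CPM with peptide against 63.7 and 47.2 CPM in co-culture (2.28 ± 0.18, adjusted p = 1.69e-07), Smurf2, its ubiquitin ligase partner, at 19.2 and 18.7 CPM with peptide against 137 and 174 CPM in co-culture (3.04), and Ltbp3, which stores the ligand in the matrix, at 0.373 and 1.75 CPM with peptide against 310.1 and 222 CPM in co-culture (7.97). Tgfb1, the ligand itself, fell by 1.54 and Tgfbr3, a co-receptor, by 3.01. Of 18 hypoxia genes 7 rose and 2 fell, but 5 of 19 rose without peptide replicate 2, near the share of all genes, and 17 rose with T cell scaling. Car9, a carbonic anhydrase of hypoxic tumors, was at 0.107 and 0.164 CPM with peptide against 9.74 and 7.92 CPM in co-culture (5.96), and Bnip3, a mitophagy receptor, fell by 1.23.

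The genes with the highest fold changes lacked a count with peptide. After Cldn4 came Wfdc2, a secreted protease inhibitor of epithelia (at least 4018-fold), Prl2c3, a prolactin relative (2903-fold), and Padi4, an enzyme that converts arginine to citrulline (1873-fold). Cxcl5, Sh3bgrl2, Irx2, Fbxo2, Fermt1, which links integrins to the cytoskeleton in epithelia, and Prl2c2 completed the 10, down to at least 856-fold. Prl2c2 and Prl2c3 are near-identical copies, so their split is uncertain. The 10 lowest lacked a count in co-culture. Cd79b, Ms4a1, Cd22, Spib, a factor of B cells and plasmacytoid dendritic cells, and Fcrla, an Fc receptor-like protein of B cells, were among them, as were Faim3 (at least 302-fold), a receptor for IgM, Wdfy4, a gene for cross-presentation in dendritic cells, Tnp2, a packaging protein of sperm chromatin, and Chst3, a sulfotransferase (at least 122-fold).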

How the data were processed

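The authors deposited counts for each Ensembl gene, whole numbers without scaling. Per the labels, libraries were stranded and made from poly(A) RNA, and mm10 and DESeq2 1.36 are named in the submitters' processing notes. The aligner, the counting tool and its strand setting were not stated in the sources used here, and reads of overlapping, antisense or near-identical genes depend on them. Of 35275 genes, 12534 had no count.

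With edgeR 4.0.16 in R 4.3.3, 14729 genes passed filterByExpr, libraries were normalized by TMM, and all 10 of them entered a quasi-likelihood fit of 5 group means without covariates, so that the groups share an estimate of the spread (common biological coefficient of variation 0.159, 5 residual degrees of freedom, prior 7.82). The contrasts were co-culture minus peptide at 24 h and its difference from the same contrast at 4 h, two-sided, with Benjamini-Hochberg adjustment over all genes and a threshold of 0.05. On simulated counts with 14729 genes, this contrast recovered 73 of 100 genes changed 2-fold and 98 of 100 changed 4-fold, and 21 unchanged genes were called. The changed genes were above 5 CPM with peptide, and all others had equal means in the groups compared. The simulation thus did not cover a shift in composition like that of the libraries, where 52.6% of genes differed. The chi-square statistic, averaged over genes of 20 or more counts, was 21 between the peptide libraries and 47.7 between the co-culture libraries, above counting error, so neither pair is 1 deposited library given again. Whether they come from separate cultures is not stated in the labels. Folds against a group without counts are bounds computed from 3 counts over that group.

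The members and the 35 gene lists (776 symbols, 7 not found) were chosen with earlier results of these data known. Genes named are a panel of 25, the 10 highest and 10 lowest fold changes whose groups stayed apart and whose higher group reached 5 CPM (unnamed models, pseudogenes and receptor segments left out), and in each list up to 4 genes that rose and 4 that fell, by p-value. Some genes that this rule names are not reported here. Fn1, Isg15, Trim30a and H2-Aa were chosen after their values were seen. Alternatives were other scalings (DESeq2 size factors, library totals, T cell genes), other filters, a replicate block, a fit of the 4 libraries, DESeq2 1.42.0 and each library left out. Promoter sequences are from RefSeq, GRCm38.p6.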

Additional observations from a re-analysis of the deposited data

Results flagged for a closer look

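The log2 fold change of co-culture over peptide was different at 24 h and at 4 h for 17 of the 24 panel genes reported by a test of the difference itself (edgeR's quasi-likelihood interaction term, adjusted over all genes, of which 36.0% passed). Values are the change at 24 h minus that at 4 h on the log2 scale, each from 2 libraries in each of 4 groups.

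Among CTL effector and receptor genes, Gzmb (-2.17 ± 0.17, adjusted p = 1.43e-06), Prf1 (-1.59 ± 0.21, adjusted p = 7.57e-05) and Il2ra (-3.05 ± 0.22, adjusted p = 5.79e-07) were lower relative to peptide at 24 h than at 4 h. The cytokines Ifng (3.15 ± 0.26, adjusted p = 1.75e-06) and Tnf (2.89 ± 0.25, adjusted p = 2.48e-06) went the other way, being below peptide at both times but by less at 24 h. Of the receptors, Ctla4 had a value of 3.24, Havcr2 one of 1.88 and Pdcd1 one of 0.97, and CD45, encoded by Ptprc, one of 1.28. The PD-1 ligand Cd274 stood at 2.54.

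Interferon targets were higher relative to peptide at 24 h than at 4 h, with Cxcl9 at 5.28 (± 0.39, adjusted p = 6.95e-07), Cxcl10 at 2.17 and H2-K1 at 1.90. Mki67 had the lowest value, -3.35 (± 0.20, adjusted p = 1.49e-07), and Myc one of 0.93. The transporter chain Slc3a2 had one of 0.88 (adjusted p = 0.0116) and the epithelial marker Epcam one of 2.47. Mean Epcam was at 310 CPM at 4 h and 269 CPM at 24 h in co-culture, and at 1.76 and 0.27 CPM with peptide. Over the 33 epithelial markers the median was -0.21, and 3 passed upward and 3 downward. With library totals alone and with T cell scaling the test was not passed for Slc3a2 (adjusted p = 0.4 and 0.203), Pdcd1 (0.145 and 0.109) and Myc (0.29 and 0.134).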

How the results depend on the processing

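With T cell scaling 12222 genes were called, 11567 higher and 655 lower, against 7742 (4214 and 3528) with TMM. That scaling turned the sign of Ptprc (0.40), Klri2 (0.83), Havcr2 (0.81), Mcm6 (0.11), Mki67 (1.495), Fbl (0.43), Slc7a5 (0.39), Slc3a2 (1.19), Slc1a5 (0.10), Slc38a1 (0.74), Hars (0.53), Psmb8 (0.65), Tgfb1 (0.16) and Bnip3 (0.47), by its own construction. Klrk1 (-0.12), Ccl3 (-0.28), Pdcd1 (-0.05), Myc (-0.09), Tcf7 (-0.03), Ccne1 (-0.24), E2f2 (-0.21), Rrp1b (-0.18) and Pfkp (-0.19) kept their sign with it but did not pass. Trim30a, which did not pass, went from -0.033 to 0.28 with 1 library left out. Over the 140 genes named with a value, 1639 of 1680 alternative values kept their sign and their side of the threshold. DESeq2 size factors gave 7725 calls, library totals 7655, no filter 7881, at least 1 CPM in 2 libraries 7630, the 4 libraries alone 6940 and DESeq2's Wald test 7644. Leaving out 1 library, so that the other of its group is assumed to vary like the other groups, gave 6590 to 6781 calls (3703 to 3808 higher, 2782 to 2984 lower). The difference between 24 h and 4 h passed for 4666 to 6238 genes over the alternatives, against 5307.

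A replicate block, with the replicate number of the labels in the model, gave 7256 calls, 7245 of them shared with the same sign. Whether same-numbered libraries belong together was not stated in the sources used here. Their deviations from the group means correlated with r = 0.081 over 14729 genes between the groups at 24 h. Over all pairs of groups r ran from -0.161 to 0.081. With 2 libraries in each group, these values cannot decide whether the numbers pair the samples.

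Depth, at 16656655 counts or more, sets a floor for genes under about 0.5 CPM; folds against groups without a count are bounds. Each group holds 2 libraries of unknown kind, tumor RNA was present in 1 group only, and B cell RNA in the other, so source of RNA and treatment cannot be told apart. Small list counts also moved: with the 4 libraries alone glycolysis genes that rose went from 5 to 2, class I genes from 11 to 5, one-carbon genes from 2 to 0 and erythroid genes that fell from 3 to 1.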

Other observations

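Per kilobase of transcript, genes can be compared with each other. In co-culture 2 keratins stood above all genes of the T cell receptor complex in both libraries, and others above some or none. Krt8 was at 473.5 and 558 CPM per kb in the 2 co-culture libraries and Krt18 at 451.9 and 594.6 CPM per kb. Krt7 was at 162.6 and 166.4 CPM per kb, near Cd3g, the γ chain of the complex, at 137.6 and 167.7 CPM per kb. Krt19 was at 47.95 and 44.79 CPM per kb. Cd3e, the ε chain of the T cell receptor complex, was at 63.6 and 47.1 CPM per kb there and Ptprc at 78.0 and 86.1 CPM per kb. With peptide, Cd3e was at 191.5 and 136.5 CPM per kb and Ptprc at 196.3 and 208.1 CPM per kb. Gzmb, at 4063 and 3801 CPM per kb with peptide, was above Ptprc by far, whereas in co-culture, at 58.0 and 51.8 CPM per kb, it was below Ptprc in both libraries.

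The 2 libraries of a group also differed by list. In co-culture, replicate 2 was above replicate 1 by a median of 0.58 on the log2 scale for mitochondrially encoded genes and 0.46 for the interferon-inducible GTPases, and below it by 0.37 for the T cell genes, against a median of -0.07 over all genes. With peptide, replicate 2 was above replicate 1 by 1.41 for stromal markers, 0.96 for B cell markers and 0.63 for MHC class II genes, against -0.04 over all genes. These are values of 2 libraries, without a test.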
